A study of Drosophila melanogaster with 96 samples.

Results

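Peptidoglycan recognition proteins (PGRPs) are the fly's sensors and scavengers of bacterial cell wall. The 10 genes described here, PGRP-SA, PGRP-SD, PGRP-LC, PGRP-LE, PGRP-LF, PGRP-SB1, PGRP-SC1a, PGRP-SC1b, PGRP-SC2 and PGRP-LB, were chosen by FlyBase symbol, and each matched 1 row among the 17370 genes counted. PGRP-LA, PGRP-LD and PGRP-SB2, the 3 other family genes in the files, were looked at only beside them. RNA came from whole bodies of single Drosophila melanogaster of the laboratory strain w1118, all of them virgin and 3 days old. Each fly was held alone in a plate well, starved on phosphate-buffered saline, and then refed a dyed liquid diet to which DMSO (dimethyl sulfoxide, a common drug solvent) had been added at 0.1, 0.2 and 0.4%, or not at all. Flies of both sexes were taken after 0, 2, 4 and 8 h of refeeding, which gave 32 groups of 3 flies and 96 libraries. Flies taken at 0 h had eaten no DMSO, so that for them the level is only a label. Every time had its own plate, so that refeeding time cannot be told apart from plate or clock time.

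Peptidoglycan binding by these proteins feeds the 2 main immune pathways of the fly. PGRP-SA and PGRP-SD circulate in the blood and act upstream of the Toll receptor, whose output includes drosomycin and the Bomanin peptides. PGRP-LC at the membrane and PGRP-LE inside and outside cells are receptors of the Imd pathway, whose output includes diptericins and attacins, and PGRP-LF, a membrane protein next to PGRP-LC in the genome, is an inhibitor of Imd signalling. PGRP-SB1, PGRP-SC1a, PGRP-SC1b, PGRP-SC2 and PGRP-LB are amidases that cut peptidoglycan, and the SC group and PGRP-LB are known for dampening the response to gut bacteria. In the FlyBase gene models of assembly BDGP6.54, PGRP-SC1a, PGRP-SC1b and PGRP-SC2 lie close together on chromosome arm 2R. PGRP-SC1a and PGRP-SC1b are known as close copies. No sequences were compared here, and counts are uncertain wherever a read could belong to more than 1 gene of the group. PGRP-LC and PGRP-LF are neighbours on 3L, where PGRP-SB1 and PGRP-SD also lie, PGRP-LB is on 3R, and PGRP-SA and PGRP-LE are on X. In whole flies, fewer cells of a type and less RNA per cell cannot be told apart.

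Libraries held 958896 to 9215796 gene counts, with a median of 4777951. One library with a female label (replicate 3 of the 8 h flies on 0.4% DMSO) had lncRNA:roX1, a male transcript, at 178 CPM (normalised counts scaled to a common library size), against under 3 CPM in the other females and at least 188 CPM in males. The same library held 4149 CPM of the yolk protein gene Yp1 and 918 CPM of 12 egg shell genes, against at most 6.48 and 24.8 CPM in males, and it was kept as labelled. One male library (0.4% DMSO, replicate 2) is labelled 0 h in its title and 8 h elsewhere, and the title was followed. The library of the male at 4 h on 0.4% DMSO, replicate 1, was the shallowest of all, and 3 counts in it equal 3.13 unnormalised CPM. All females came from 1 sequencing run. Of the males, 8 came from that run (food without DMSO at 0 and 2 h, and 2 of the 3 at 4 h) and 40 from another.

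Length was taken as all annotated exons of a gene merged, which can exceed that of a single transcript. By that length the amidase gene PGRP-SC2 was the most abundant member in both sexes and PGRP-LE, the intracellular receptor, the second. Their median levels were 76.6 and 15.5 CPM per kb over 48 females and 45.2 and 11.6 CPM per kb over 48 males. In females the order went on with PGRP-SB1 at 13.1, PGRP-SD at 9.45, PGRP-LB at 7.76, PGRP-LC at 5.20, PGRP-SA at 5.17, PGRP-LF at 2.15 and PGRP-SC1a at 1.63 CPM per kb. In males PGRP-SD stood at 8.63, PGRP-SB1 at 8.31, PGRP-LB at 7.57, PGRP-SA at 6.78, PGRP-LC at 5.55, PGRP-LF at 3.00 and PGRP-SC1a at 0.343 CPM per kb. The ranges of all neighbours in both orders overlapped, so the order of neighbours does not hold fly by fly. PGRP-SC1b had a median of 0 CPM in both sexes, with no read in 28 of 48 females and 36 of 48 males, and it was too low for any test. The other 9 members were tested throughout.

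**Figure D1:**
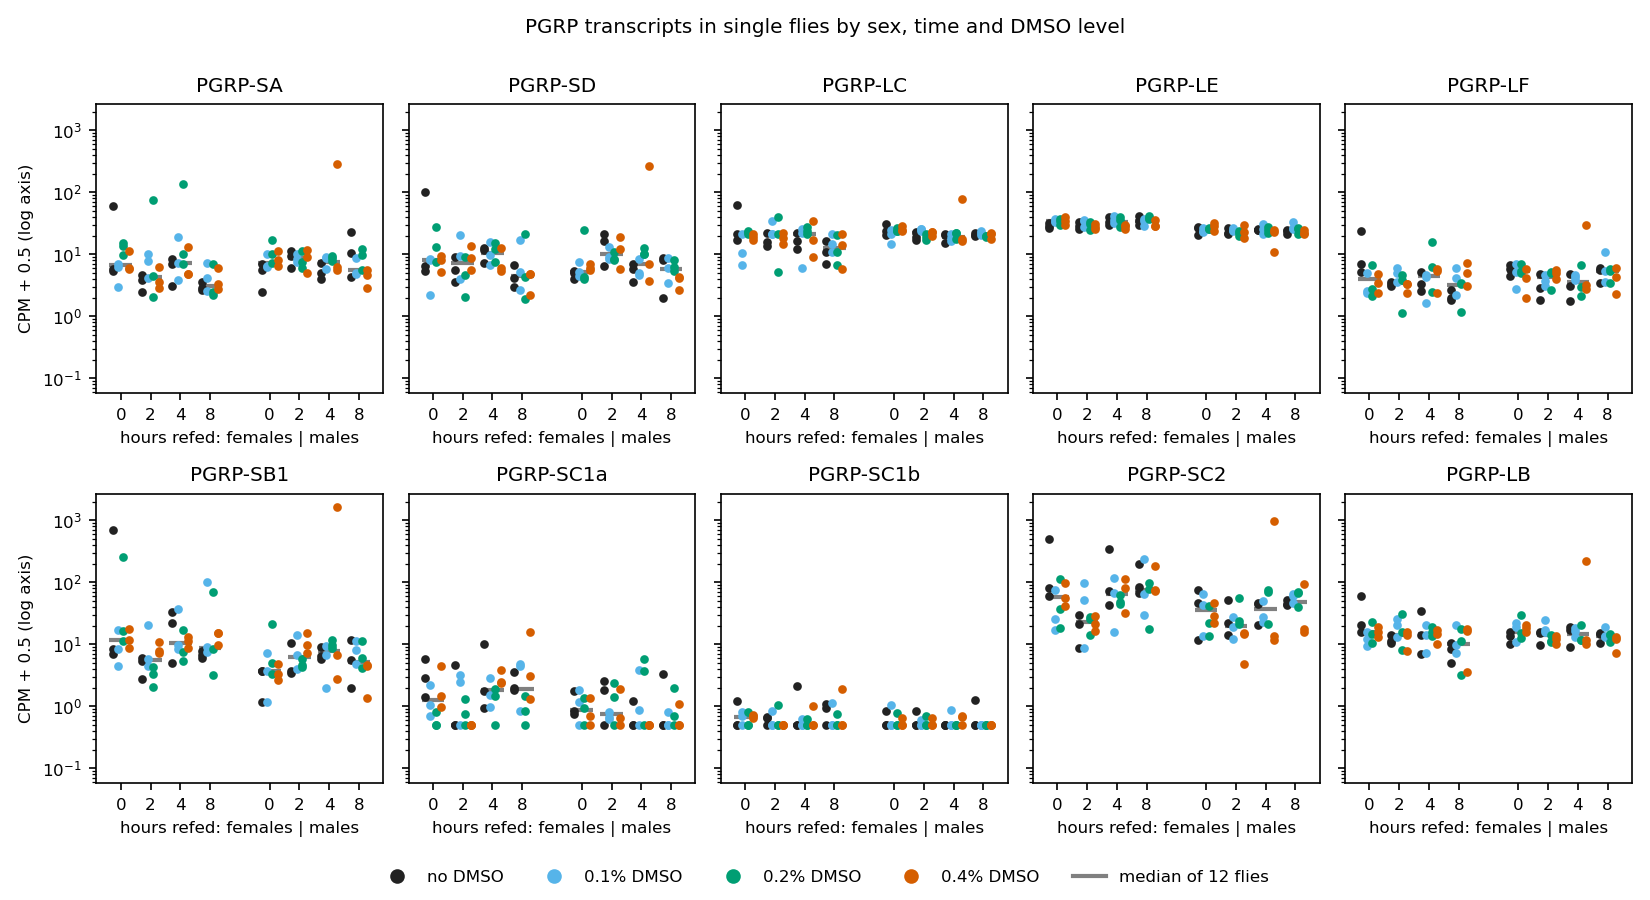
Level of each member in each fly, as CPM + 0.5 on a log axis, by hours of refeeding, with females in the left block of each panel, males in the right block, and colour for the DMSO level; grey bars are medians of 12 flies. PGRP-LE stays within 23.6 to 40.2 CPM in females, while PGRP-SB1 spans 0.651 to 1621 CPM in males, with 1 fly far above the others.

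The members also differed in how far single flies strayed from the usual level. PGRP-SB1 was the most variable member in both sexes, with an SD of log2(CPM + 0.5) of 1.55 in females and 1.51 in males. It measured 1.57 CPM in the lowest female, 8.13 in the median and 681 in the highest, and 0.651, 5.17 and 1621 CPM in males. PGRP-LE was the steadiest tested member, with an SD of 0.21 in females and 0.24 in males, and its lowest, median and highest levels were 23.6, 32.2 and 40.2 CPM in females and 10.3, 24.0 and 32.2 CPM in males. PGRP-LC, the membrane receptor, was steady in males (14.1, 20.8 and 76.3 CPM) and less so in females (4.70, 19.5 and 61.8 CPM). A few flies carried the extremes. Levels over 5 times the median of the sex were seen for PGRP-SB1 in 4 females, for PGRP-SA and the sparsely read PGRP-SC1a in 3 each, for PGRP-SC2 and PGRP-LF in 2 each and for PGRP-SD in 1. In males the one fly that passed this mark for PGRP-SA, PGRP-SB1, PGRP-SC2, PGRP-SD, PGRP-LB and PGRP-LF was the same each time. PGRP-SC1a, with a male median of 0.202 CPM, passed it in 11 other males on 3 to 22 counts each.

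That male (4 h, 0.4% DMSO, replicate 1) held 1621 CPM of PGRP-SB1, 980 of PGRP-SC2, 287 of PGRP-SA, 260 of PGRP-SD, 221 of PGRP-LB, 76.3 of PGRP-LC and 28.9 of PGRP-LF. PGRP-SB1, PGRP-SC2, PGRP-SA, PGRP-SD and PGRP-LB were 16.4 to 313 times their male median in it. Without normalisation its PGRP-SB1 level was 820 CPM, from 786 counts. The same library held 27125 CPM of the 6 diptericin and attacin genes summed and 34607 CPM of the 12 Bomanin genes, against 114 and 1645 CPM in the next highest male. PGRP-LE, at 10.3 CPM, was lower in it than in any other male. Since 1 count in this library equals 2.06 CPM, that low value rests on few counts.

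The nearest female was taken at 0 h from the group labelled without DMSO (replicate 1). It held 681 CPM of PGRP-SB1, 502 of PGRP-SC2, 102 of PGRP-SD, 59.9 of PGRP-SA and of PGRP-LB, 61.8 of PGRP-LC and 23.5 of PGRP-LF, beside 11692 CPM of diptericins and attacins and 9169 CPM of Bomanins. The female medians of these sums were 4.73 and 303 CPM. The other 2 flies of its group held 7.91 and 6.33 CPM of PGRP-SB1, so the group spans a wide range before any refeeding. Its PGRP-LE level, 31.2 CPM, was within the usual female range.

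Other females were high in some members and not in others. The female at 0 h labelled 0.2% DMSO, replicate 3, held 254 CPM of PGRP-SB1 with 12.8 of PGRP-SA, and 2454 CPM of diptericins and attacins. Females at 8 h on 0.1 and on 0.2% DMSO, each replicate 3, held 101 and 70.2 CPM of PGRP-SB1 with 6.67 and 6.53 of PGRP-SA, and 560 and 314 CPM of diptericins and attacins. In these 3 flies the amidase was far above its female median of 8.13 CPM, while PGRP-SA lay between 6.53 and 12.8 CPM beside a median of 5.27 CPM. The reverse was seen in a pair of females on 0.2% DMSO. The one at 4 h (replicate 3) held 133 CPM of PGRP-SA and 4.82 of PGRP-SB1 beside 6297 CPM of Bomanins and 266 of diptericins and attacins. The one at 2 h (replicate 2) held 74.5 CPM of PGRP-SA and 2.75 of PGRP-SB1, with 457 CPM of Bomanins and 54.2 of diptericins and attacins. Both also had few egg shell transcripts, 14.3 and 8.80 CPM for 12 genes against a female median of 2842 CPM, and the part of that in their PGRP-SA level was not tested.

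**Figure D2:**
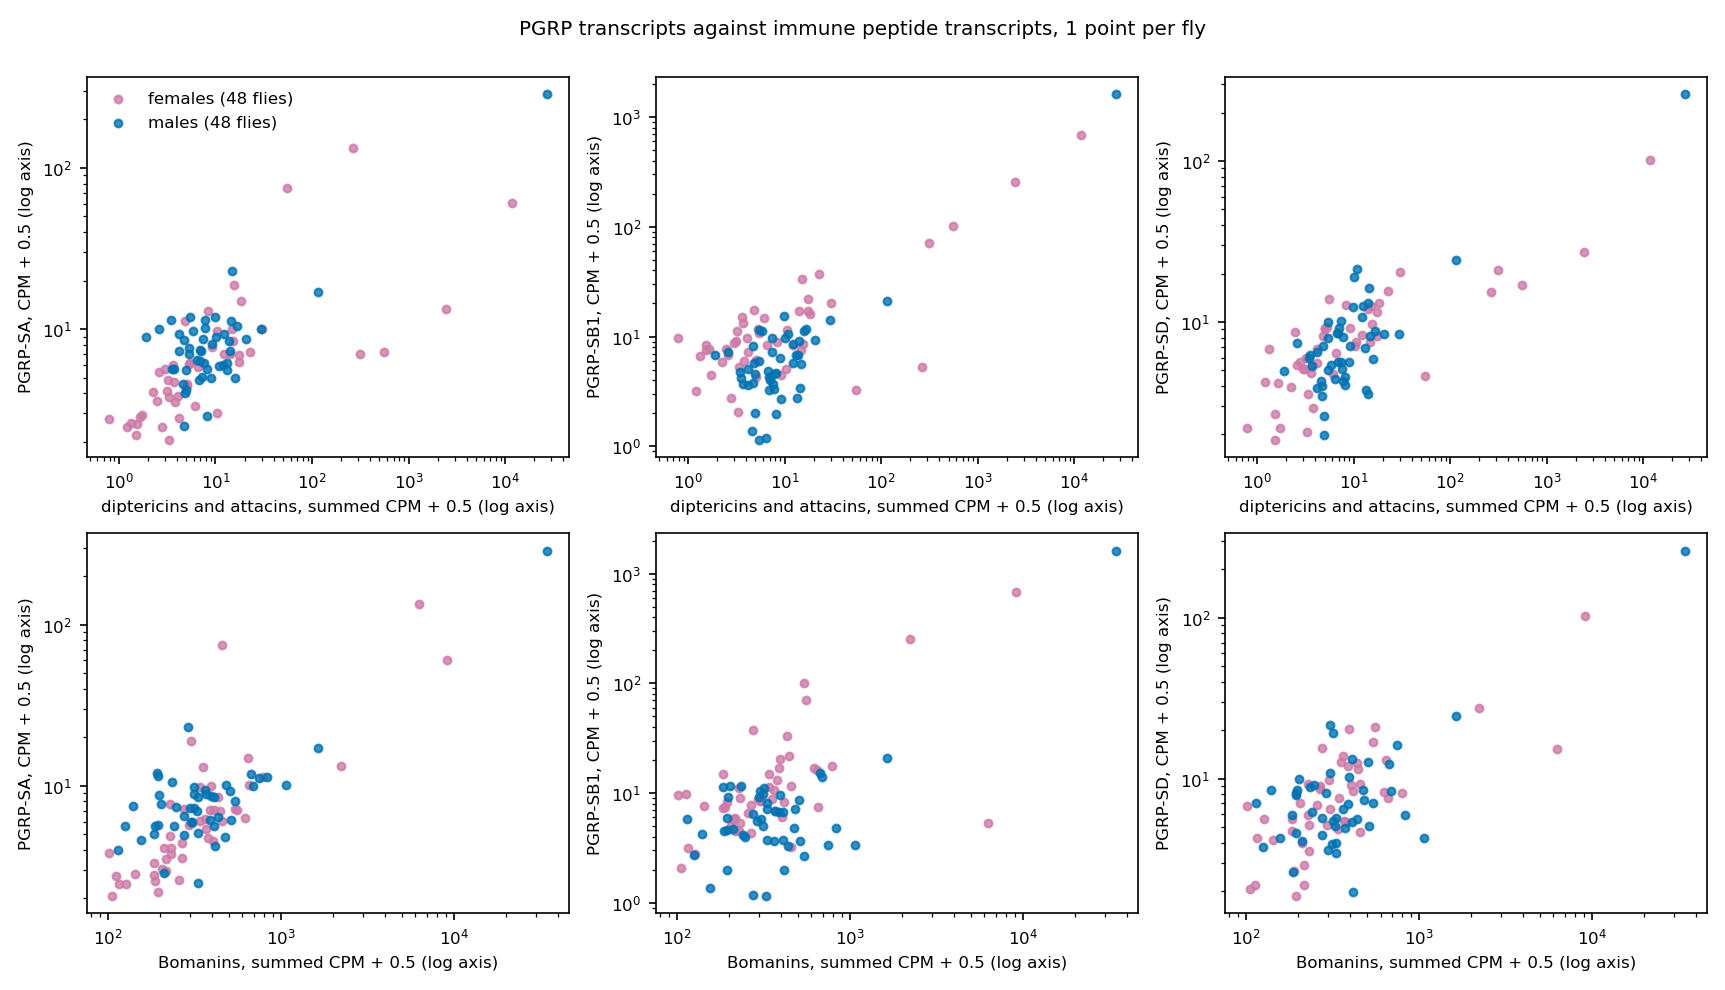
Each point is 1 fly, with the summed level of diptericins and attacins (top) or Bomanins (bottom) on the x axis and PGRP-SA, PGRP-SB1 or PGRP-SD on the y axis, all as CPM + 0.5 on log axes, for 48 females and 48 males. The highest PGRP-SB1 levels lie with the highest diptericin and attacin sums, while 2 females with 133 and 74.5 CPM of PGRP-SA have low PGRP-SB1.

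Refeeding was examined first as a change from the starved state. Over the 4 foods, females at 2, 4 and 8 h were each set against females at 0 h (12 flies against 12). Males were compared over the 3 foods with DMSO (9 flies against 9), which came from 1 run. In females at 2 h, 2 of 9 tested members were lower than at 0 h and none was higher (edgeR's quasi-likelihood test, p-values adjusted by Benjamini and Hochberg's method, threshold 0.05). Among all 10060 genes tested there, 4.37% were lower and 9.27% higher. At 4 h none of the 9 was called, as none of all genes was (0% of 10060; 1615 had an unadjusted p under 0.05), 1 member had an unadjusted p under 0.05, and DESeq2 called 0 members and 255 genes. At 8 h edgeR called 0 members against a background of 3.59% of genes, 5 members had an unadjusted p under 0.05 and DESeq2 called 1. Over all 10060 genes, 2095 had an unadjusted p under 0.05 there and DESeq2 called 704. In males edgeR called 0 of 9 at 2 h (1.40% of 12644 genes), 1 higher at 4 h (0.506% higher among all genes) and 0 at 8 h (11.3%). At 2 and 8 h no member had an unadjusted p under 0.05 in males and DESeq2 called none. Over all genes, 1809 and 3274 had an unadjusted p under 0.05 at these times and DESeq2 called 315 and 1696.

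The Toll-side recognition genes were not called by edgeR at any time against 0 h. PGRP-SA measured 1.70, 2.58 and 6.67 CPM (lowest, median and highest of 12) in females at 8 h, against 2.45, 6.17 and 59.9 CPM in females at 0 h. The ranges overlapped, but the median was lower at 8 h. The log2 difference of PGRP-SA was -1.70 with an SE of 0.57 and an adjusted p of 0.0782 in edgeR's quasi-likelihood test, and DESeq2 called it (adjusted p = 0.0211). On the 3 foods with DMSO alone it was -1.04 with an edgeR adjusted p of 0.615. PGRP-SD measured 1.36, 3.99 and 20.5 CPM in females at 8 h, against 1.69, 7.68 and 102 CPM at 0 h, a log2 difference of -1.26 (SE 0.48, edgeR adjusted p = 0.130), and it passed with an adjusted p of 0.0377 once the female at 8 h on 0.2% DMSO, replicate 3, was left out. In males at 8 h the difference from 0 h was -0.60 for PGRP-SA (SE 0.48) and -0.54 for PGRP-SD (SE 0.52).

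The Imd receptor genes PGRP-LE and PGRP-LC and the inhibitor gene PGRP-LF were not called by edgeR at any time against 0 h. In females PGRP-LE averaged 32.6 ± 4.07 CPM at 0 h, 29.1 ± 3.78 at 2 h, 32.6 ± 5.20 at 4 h and 33.7 ± 4.63 at 8 h (SD, n = 12 each). Its log2 differences from 0 h lay between -0.13 and 0.06, and the 95% interval at 8 h ran from -0.23 to 0.10. The fitted difference at 8 h, -0.07 with females scaled on their own, has the opposite sign to that of the printed means, which are scaled over all 96 libraries, and both are small beside the spread. In males the interval at 8 h ran from -0.26 to 0.16, so that a larger change of PGRP-LE than these bounds lies outside the interval. PGRP-LC averaged 12.8 ± 5.63 CPM in females at 8 h and 21.5 ± 13.7 at 0 h (SD, n = 12 each). The log2 difference of PGRP-LC was -0.78 (SE 0.34, edgeR adjusted p = 0.183) against 0 h, and -0.82 (SE 0.34, adjusted p = 0.0632) against 2 h, where it averaged 20.2 ± 9.09 CPM. DESeq2 called the second difference of PGRP-LC (adjusted p = 0.0405), and edgeR did so without any 1 of 6 flies (adjusted p 0.0165 to 0.0465), the 2 h females on 0.2%, replicate 1, and 0.4%, replicate 3, and the replicate 3 of each food at 8 h, which include the library with male transcripts. PGRP-LA, its neighbour in the genome and a family gene of the Imd pathway, fell by 0.82 between the same groups (SE 0.30, adjusted p = 0.0377). In females at 8 h, 5 of 8 blood cell marker genes were lower than at 2 h, where 18.7% of all genes were lower, and their summed level was 84.4 to 309 CPM at 8 h and 161 to 523 CPM at 2 h; its part in the PGRP-LC and PGRP-LA values was not tested.

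Among the amidases, PGRP-SB1 was lower in females at 2 h. It measured 1.57, 5.07 and 19.8 CPM there (lowest, median and highest of 12), against 3.98, 11.0 and 681 CPM at 0 h. The groups overlapped, and the mean at 0 h, 86.7 CPM, rested on 2 flies at 681 and 254 CPM. The log2 difference of PGRP-SB1 was -2.81 (SE 0.67, adjusted p = 0.00856, edgeR's quasi-likelihood test). Without the 0 h female of 681 CPM it was -1.53 with an adjusted p of 0.0648, and on the 3 foods with DMSO alone it was -1.73 with an adjusted p of 0.142. PGRP-SB1 then measured 4.56, 9.89 and 36.9 CPM at 4 h and 2.68, 8.20 and 101 CPM at 8 h, near its level at 0 h in the median fly.

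PGRP-SC2 was called in 2 comparisons of times in females. Its lowest, median and highest levels were 16.5, 57.2 and 502 CPM at 0 h, 8.27, 22.6 and 96.6 CPM at 2 h, 15.0, 64.0 and 339 CPM at 4 h and 17.3, 75.3 and 239 CPM at 8 h. The groups overlapped, with the lowest median at 2 h. Against 0 h it was lower at 2 h by a log2 difference of -1.44 (SE 0.47, adjusted p = 0.0383, edgeR's quasi-likelihood test). That call was lost without any 1 of 11 flies (adjusted p 0.0505 to 0.125). These were at 0 h the none-labelled replicate 1, the 0.1 and 0.2% replicates 3 and the 0.4% replicate 1, and at 2 h replicates 2 and 3 without DMSO, replicates 1 and 2 on 0.1% and all 3 on 0.4%. The log2 difference was -1.02 without the 0 h female of 502 CPM and -0.68 (adjusted p = 0.414) on the 3 foods with DMSO alone. In the same comparison 3 of 12 midgut digestion genes were lower (iotaTry, Mal-A4 and thetaTry, log2 -3.59, -3.56 and -2.35) and Jon25Bii was higher (2.61), and the sum of 14 such genes was 3167 to 10472 CPM (median 7956) at 2 h and 886 to 13784 CPM (median 7502) at 0 h; its part in the PGRP-SC2 value was not tested. The later rise rested on no single fly. Females at 8 h had higher PGRP-SC2 than females at 2 h, with a log2 difference of 1.73 (SE 0.47, adjusted p = 0.0107, 12 flies against 12). It passed the threshold without each of 24 libraries in turn, with values from 1.41 to 1.97.

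In the comparison of 8 h with 2 h in females, 2 of 9 members were higher and none was lower, where 11.1% of all genes were higher and 18.7% lower. The second was PGRP-SC1a, a close copy of PGRP-SC1b. It measured 0, 1.40 and 14.9 CPM at 8 h and 0, 0 and 4.07 CPM at 2 h, from 181 and 59 counts summed over 12 flies each. Its log2 difference was 2.32 (SE 0.88, adjusted p = 0.0459, edgeR). All 3 flies on 0.4% DMSO at 2 h held no read of PGRP-SC1a, so that this fold depends on the fit's prior count. The call was lost without any 1 of 17 of the 24 flies, with the highest adjusted p, 0.199, at a log2 difference of 1.90 without the 8 h female on 0.2% DMSO, replicate 3, and PGRP-SC1a with PGRP-SC1b summed into 1 feature showed 2.31 (adjusted p = 0.0452) and left the PGRP-SC2 call as it was. PGRP-SB1 showed 1.49 (adjusted p = 0.0786), and PGRP-SA and PGRP-LB, at -1.21 and -0.69, were not called (adjusted p = 0.0923 and 0.112). DESeq2 called PGRP-SB1 there (adjusted p = 0.0288), and PGRP-SA passed without the 2 h female on 0.2% DMSO, replicate 1 (-1.35, adjusted p = 0.0371).

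Males gave no call in the same comparison, where 4.24% of all genes were called, although PGRP-SC2 showed a similar size of difference. It measured 15.5, 58.9 and 94.5 CPM in males at 8 h and 4.35, 18.1 and 56.1 CPM in males at 2 h (9 flies each), and the groups overlapped. The log2 difference of PGRP-SC2 was 1.46 (SE 0.54, unadjusted p = 0.00980, adjusted p = 0.119, edgeR), and DESeq2 called 0 members too. PGRP-SD, at -1.07 (SE 0.51, adjusted p = 0.255), was the other member with an unadjusted p under 0.05. Over 14 digestive enzyme genes of the midgut the summed level was 7118 to 17181 CPM (median 9677) in females at 8 h and 3167 to 10472 CPM (median 7956) at 2 h. In males it was 8533 to 17030 CPM (median 11763) at 8 h and 1814 to 10597 CPM (median 6975) at 2 h, over 12 flies each. Unlike the 9 males tested, these 12 include the males without DMSO, which came from different runs at 2 and 8 h. Of 12 such genes tested, 1 rose in females (Mal-A4, a maltase, log2 2.15), where 11.1% of all genes did, and 5 rose in males, where 3.37% did, led by Mal-A1 (log2 1.74) and the protease gene Jon99Ci (log2 1.64). The part of midgut RNA in the PGRP-SC2 values was not tested.

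The only male call against 0 h was PGRP-SB1 at 4 h. Males at 4 h measured 1.48, 8.08 and 1621 CPM, against 0.679, 3.17 and 20.4 CPM at 0 h (9 flies each). The log2 difference was 2.67 (SE 0.69, adjusted p = 0.0484, edgeR). Without the male of 1621 CPM it was 0.38 with an adjusted p of 0.773, and the call was lost without any 1 of 13 of the 18 flies. DESeq2 gave no adjusted p for PGRP-SB1 here.

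**Figure D3:**
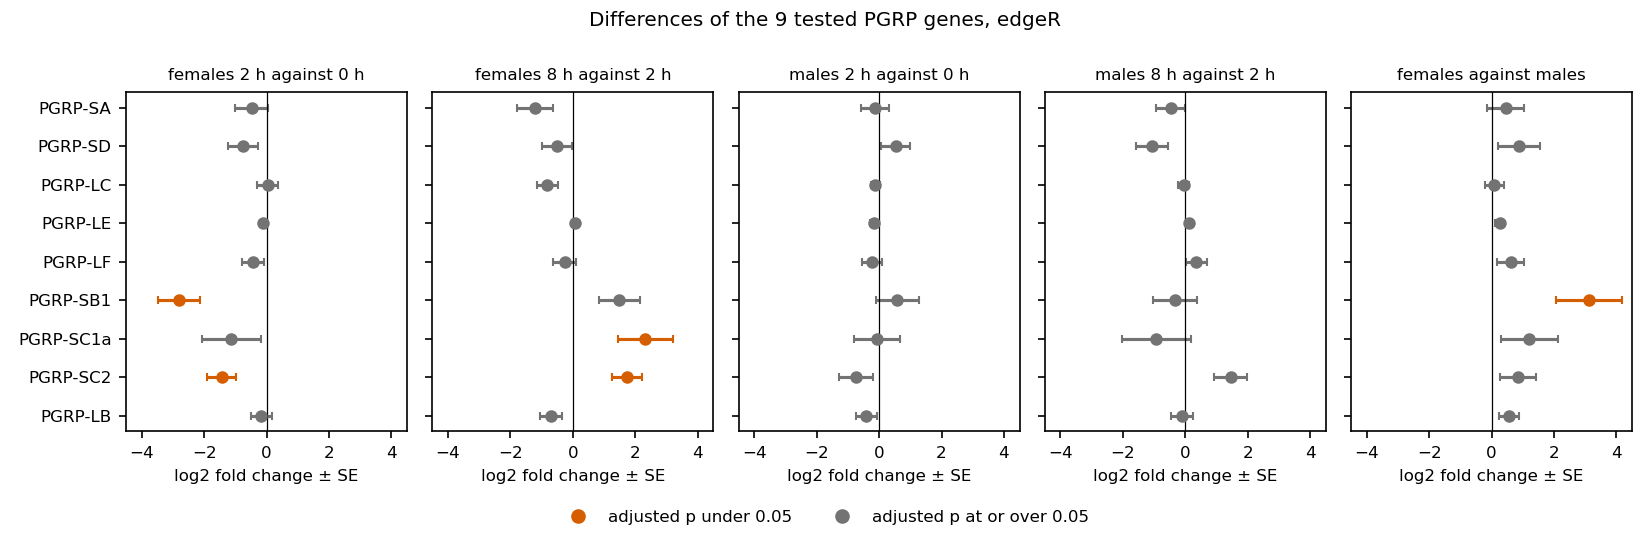
Log2 fold change with SE of the 9 tested members in 5 comparisons, from edgeR, with orange for an adjusted p under 0.05; the first named group is the numerator. PGRP-SC2 moves down at 2 h and up between 2 and 8 h in females (-1.44 and 1.73), and PGRP-LE stays close to 0 in each panel.

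Whether the sexes changed differently was tested as an interaction over the 3 foods with DMSO (72 libraries, 12967 genes). It called 0 members and 0% of genes at 2 h, 0 members and 0% at 4 h and 0 members and 0% at 8 h, with 1 member at an unadjusted p under 0.05 each time, and DESeq2 called 0 members. Over all genes, 1333, 1441 and 793 had an unadjusted p under 0.05 at 2, 4 and 8 h, and DESeq2 called 475, 384 and 612. The largest was PGRP-SB1 at 4 h, whose change in females minus that in males was -3.40 (SE 0.99, adjusted p = 0.336). Without the male of 1621 CPM it was -1.23 (adjusted p = 0.589). For PGRP-SC2 at 8 h it was 0.13 (SE 0.75).

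The sexes themselves were compared on food without DMSO at 0 and 2 h, 6 females against 6 males of the same run. All 9 tested members had a positive log2 difference, with a median of 0.61 against -0.19 for all genes, and 1 of 9 was called higher, where 26.1% of all 12069 genes were higher in females. Those signs rested in part on the 0 h female of 681 CPM of PGRP-SB1, and without it 6 members were positive and 3 negative (PGRP-SA -0.65, PGRP-SD -0.52 and PGRP-LC -0.34), with a median of 0.08. The called member was PGRP-SB1, at 2.27, 5.96 and 681 CPM in females and 0.651, 3.18 and 10.0 CPM in males. Its log2 difference was 3.12 (SE 1.07, adjusted p = 0.0190, edgeR). Without the female of 681 CPM it was 0.58 with an adjusted p of 0.227, and DESeq2 gave PGRP-SB1 no adjusted p and called 0 members. The call was also lost without any of 3 other flies (adjusted p 0.0530 to 0.0593), a female and a male at 2 h, each replicate 1, and a male at 0 h, replicate 3. PGRP-LE averaged 28.4 ± 3.04 CPM in females and 23.3 ± 3.28 in males (SD, n = 6 each), a log2 difference of 0.26 with a 95% interval of -0.04 to 0.56. PGRP-LB, at 0.55 (adjusted p = 0.146), passed without the 0 h female of replicate 3 (0.72, adjusted p = 0.0413). PGRP-LA showed -0.00.

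DMSO in the food was tested in fed females as each level against none over 2, 4 and 8 h (9 flies against 9). By edgeR 0 of 9 members were called on 0.1% DMSO (0% of 10060 genes), 0 on 0.2% (0%) and 0 on 0.4% (0.00994%). At an unadjusted p under 0.05 the members numbered 0, 2 and 0, and the genes 154, 719 and 297. DESeq2 called 0, 1 and 0 members, and 12, 22 and 5 genes. The one member called by DESeq2 was PGRP-SA on 0.2% DMSO (adjusted p = 0.0327). Its 9 values there were 1.57, 74.5 and 3.94 CPM at 2 h, 9.58, 6.55 and 133 at 4 h and 1.70, 1.97 and 6.53 at 8 h, against 1.97 to 7.97 CPM in the 9 fed females without DMSO. Only those 2 high flies and the 4 h fly at 9.58 lay above the range without DMSO. The log2 difference was 2.37 (SE 0.66, edgeR adjusted p = 0.398), and without the flies at 74.5 or 133 CPM in turn it was 1.20 or 1.41.

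In fed males 0.4% DMSO was set against 0.1%, which came from the same run, and edgeR called 0 of 9 members and 0% of 12644 genes (838 had an unadjusted p under 0.05). There 3 members had an unadjusted p under 0.05, with PGRP-SB1 at 1.87 (SE 0.69), PGRP-SD at 1.08 (SE 0.51) and PGRP-LE at -0.23 (SE 0.11), and DESeq2 called 0 members and 1 gene. Without the male of 1621 CPM of PGRP-SB1 the values of PGRP-SB1 and PGRP-SD turned to -0.43 and -0.22 and that of PGRP-LE was -0.18. The median levels were 6.27 CPM on 0.4% DMSO and 6.30 CPM on 0.1% for PGRP-SB1, and 5.17 and 7.88 CPM for PGRP-SD. At 8 h, where all males shared a run, any DMSO against none called 0 members against 0.00791% of genes, none had an unadjusted p under 0.05, and DESeq2 called 0. The 95% interval for PGRP-LE in that comparison ran from -0.17 to 0.47.

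Each level was also set against none at each time, 24 pairs of 3 flies against 3. The pair of males at 4 h on 0.4% DMSO gave 3 calls, PGRP-SB1, PGRP-SA and PGRP-SD, all higher, where 1.04% of genes were higher. The other 23 pairs gave none, where 0.0204% of tests were called; 18 of their member tests had an unadjusted p under 0.05, of which 7, 3 and 4 were in females at 0 h labelled 0.1, 0.2 and 0.4%, set against the group of the 0 h female of 681 CPM before any DMSO was eaten. DESeq2 called 1 of these, PGRP-SB1 at 0 h in females labelled 0.1% (log2 -4.90, adjusted p = 0.0103). PGRP-SB1 measured 1621, 6.27 and 2.24 CPM in the 3 males on 0.4% DMSO and 5.25, 5.88 and 8.63 CPM in the 3 without. PGRP-SA measured 287, 5.63 and 5.09 CPM on 0.4% DMSO and 3.50, 4.47 and 6.78 CPM without. PGRP-SD measured 260, 6.44 and 3.26 CPM on 0.4% DMSO and 6.57, 5.18 and 3.08 CPM without. The same fly of the 3 was high in each gene, and the other 2 lay between 2.24 and 6.44 CPM. The log2 differences were 6.38 (SE 1.25, adjusted p = 0.00436), 4.13 (SE 0.88, adjusted p = 0.0122) and 3.88 (SE 0.93, adjusted p = 0.0319) in edgeR's quasi-likelihood test for PGRP-SB1, PGRP-SA and PGRP-SD. Without that fly they were -0.52, 0.22 and -0.0047. The run was confounded in part with this pair, and with the run as a factor none of the 3 was called.

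How the members follow antimicrobial peptide transcripts from fly to fly was examined with the summed CPM of 14 such genes. The 48 flies of each sex were used. The female median was 577 CPM for this sum and 4.73 CPM for the diptericins and attacins in it. Other peptides thus made up most of it in the usual female. How much of the sum was an induced response was not tested. In females 5 of 9 members related positively to this sum, where 34.0% of genes did, and 1 negatively, where 44.4% did (Spearman's rho, 100000 permutations, two-sided, Benjamini-Hochberg over all genes). Most genes related to it in one direction or the other (78.4%), and 6 of 9 members did. The highest were PGRP-LC (rho = 0.75, Pearson's r = 0.72), PGRP-LB (0.69 and 0.73), PGRP-LF (0.65 and 0.76), PGRP-SD (0.64 and 0.78) and PGRP-SA (0.60 and 0.68). Permutation p was 1e-05, the smallest 100000 permutations give, for rho and r of the first 4 and for r of PGRP-SA, whose rho had 3e-05; the adjusted p of rho was at most 7.81e-05 and that of r 0.000199. Without the 2 flies farthest from the median their rho was 0.56 to 0.72 and r 0.64 to 0.73. PGRP-LC stood 19th among 10060 genes by rho. PGRP-LE related negatively by rank (rho = -0.36, permutation p = 0.0133, adjusted p = 0.0184; r = -0.14, p = 0.341), and PGRP-SB1 had a rho of 0.22 (p = 0.137, adjusted p = 0.161) with an r of 0.61 (p = 0.00018), which was 0.16 without 2 flies. When each fly was set against the mean of its group, PGRP-LE no longer related (rho = -0.10, permutation p = 0.571) and PGRP-SB1 did (rho = 0.63, permutation p = 0.00102, adjusted p = 0.00421; r = 0.74).

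The 2 immune pathways were then looked at apart, with sums chosen after the data were seen. Deviations from group means were taken only for the 14 peptides. For these 2 sums, shifts shared over time, food or plate are thus not told apart from relations between single flies. In females 6 of 9 members related positively to the sum of diptericins and attacins, the Imd side, where 18.2% of genes did. PGRP-SA had a rho of 0.83 and stood 6th among 10060 genes, and PGRP-SD a rho of 0.79 and stood 29th (r = 0.72 and 0.82, permutation p of each 1e-05, adjusted p of rho 0.000221 and of r 0.000459). Without 2 flies their rho was 0.81 and 0.77, and r 0.70 and 0.73. PGRP-SB1, which did not pass against the 14 peptides, did here, with a rho of 0.52 (permutation p = 0.00017, adjusted p = 0.00128) and an r of 0.78 (p = 1e-05), and 0.46 and 0.55 without 2 flies. PGRP-LC, PGRP-LB and PGRP-LF had a rho of 0.66, 0.66 and 0.47.

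Against the Bomanins, the Toll side, the same 6 members passed in females, where 21.9% of genes did. PGRP-SA led with a rho of 0.84 and an r of 0.82 (permutation p of each 1e-05, adjusted p = 9.62e-05 and 0.000222), and 0.82 and 0.68 without 2 flies. The rhos of PGRP-SD, PGRP-LC, PGRP-LB, PGRP-SB1 and PGRP-LF were 0.71, 0.65, 0.65, 0.54 and 0.47. The rhos of PGRP-SC1a and PGRP-SC2 lay between -0.07 and 0.13 with all 3 immune sums in females. By r PGRP-SC2 passed with diptericins and attacins (0.36, adjusted p = 0.0362, where 13.7% of genes did) and not with the Bomanins (0.31, adjusted p = 0.0554).

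In males the calls by rho and by r differed. With the 14 peptides 2 of 9 members related positively by rho, where 6.07% of genes did. By r 7 members did, all but PGRP-SC1a and PGRP-LE (0.61 to 0.83, where 18.0% of genes did), and PGRP-LE related negatively (-0.65, adjusted p = 0.0385, where 28.2% did). None of these r values passed without the male of 1621 CPM (lowest adjusted p = 0.138). PGRP-SC2 had a rho of 0.46 (permutation p = 0.00103, adjusted p = 0.0176) and an r of 0.67 (p = 0.00011, adjusted p = 0.00396), and without 2 flies 0.46 and 0.49. PGRP-SB1 had a rho of 0.39 (p = 0.00555, adjusted p = 0.0478) and an r of 0.83 (p = 4e-05, adjusted p = 0.00263), and without 2 flies 0.31 and 0.30. Without the male of 1621 CPM alone, PGRP-SC2 still passed by rho (0.43, adjusted p = 0.0379; r = 0.37, adjusted p = 0.164) and PGRP-SB1 did not (0.36, adjusted p = 0.0955; r = 0.41, adjusted p = 0.138). Within the run of 40 males these rhos were 0.46 for PGRP-SC2 and 0.44 for PGRP-SB1, and within the run of 8 they were 0.57 and -0.07. With diptericins and attacins no member passed by rho, where 0.0237% of genes did. By r 6 members did (0.53 to 0.82, where 9.55% of genes did), and without 2 flies their r values were -0.12 to 0.40. PGRP-SD had the highest rho there, 0.49 (p = 0.0004, adjusted p = 0.333), which stood 15th among 12644 genes, with an r of 0.80 (p = 2e-05, adjusted p = 0.0181), and 0.42 and 0.40 without 2 flies. With the Bomanins PGRP-LB alone passed by rho, where 2.74% of genes did, with a rho of 0.44 (p = 0.00162, adjusted p = 0.0419) and an r of 0.80 (p = 1e-05, adjusted p = 0.000648), and without 2 flies 0.41 and 0.49. By r PGRP-SA, PGRP-LC, PGRP-SB1, PGRP-SD and PGRP-LF passed as well (0.53 to 0.78, where 14.7% of genes did), at 0.09 to 0.34 without 2 flies.

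**Figure D4:**
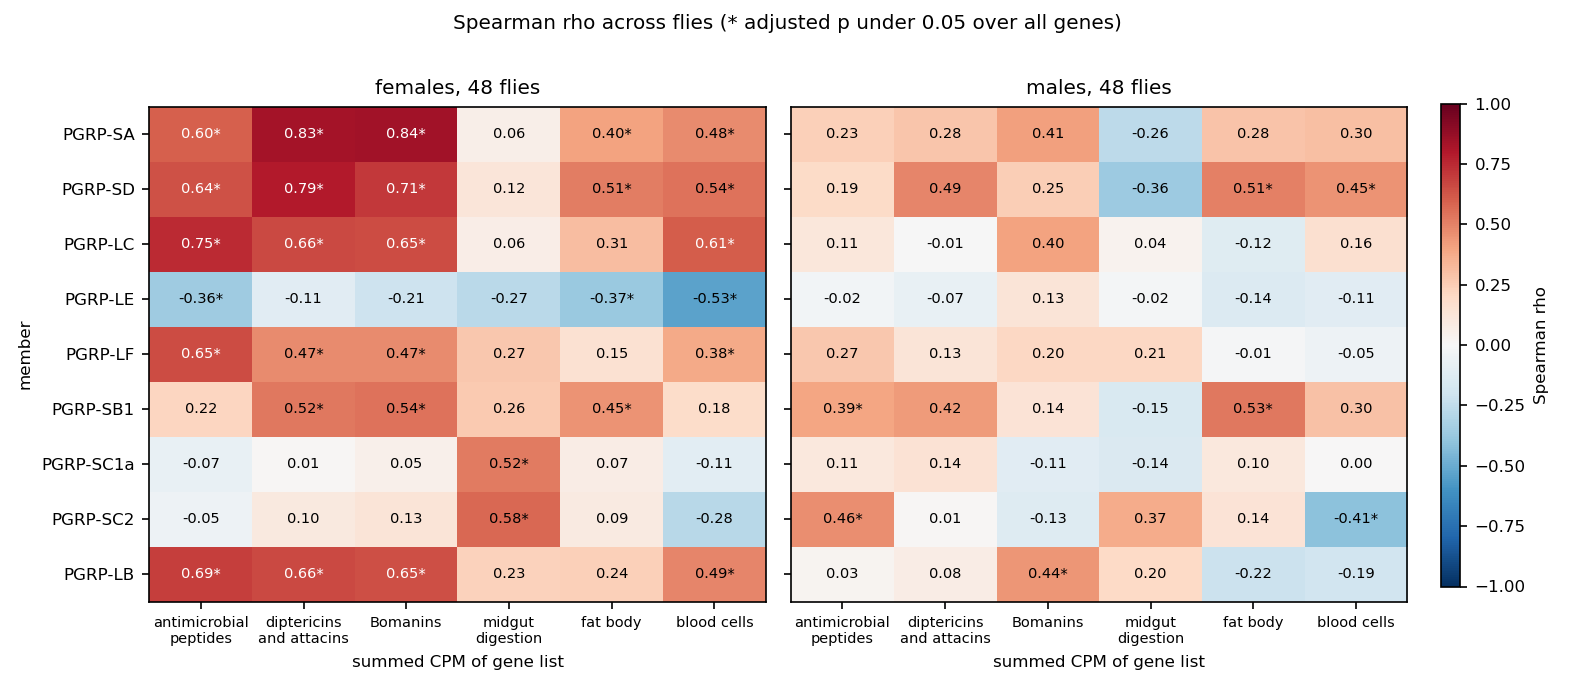
Spearman's rho between each tested member (rows) and the summed CPM of 6 gene lists (columns) over 48 females (left) and 48 males (right), with a star for an adjusted p under 0.05 over all genes. In females PGRP-SA reaches 0.83 and 0.84 with the immune sums, and PGRP-SC2 and PGRP-SC1a have their highest values, 0.58 and 0.52, with midgut digestion.

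The same measure was taken against marker genes of tissues. Flies were permuted across all times and foods, and deviations from group means were not taken for these lists. Shifts shared over time, food or plate are thus not told apart from relations between single flies. With the 14 midgut digestion genes, 2 members passed in females, where 2.78% of genes did. PGRP-SC2 had a rho of 0.58 (permutation p = 3e-05, adjusted p = 0.00343) and an r of 0.55 (p = 6e-05, adjusted p = 0.00784), and stood 79th of 10060 genes. PGRP-SC1a had a rho of 0.52 (p = 0.00021, adjusted p = 0.0125) and an r of 0.44 (p = 0.00166, adjusted p = 0.0865). Without 2 flies the rhos were 0.52 and 0.53 and the r values 0.53 and 0.53. No member passed by rho in males, where 3.89% of genes did, and PGRP-SC2 had the highest rho, 0.37 (adjusted p = 0.112; r = 0.25, adjusted p = 0.390). By r PGRP-SD passed negatively in males (-0.47, adjusted p = 0.0440, where 1.27% of genes did; rho = -0.36, adjusted p = 0.129), with an r of -0.45 without 2 flies. With 8 fat body markers PGRP-SD, PGRP-SB1 and PGRP-SA related positively in females (rho = 0.51, 0.45 and 0.40, where 17.6% of genes did) and PGRP-LE negatively (rho = -0.37, where 32.8% did). The r values were 0.47, 0.37, 0.12 and -0.40, and that of PGRP-SA did not pass (adjusted p = 0.497). In males PGRP-SB1 and PGRP-SD related positively (0.53 and 0.51, where 2.76% did). Their r values in males were 0.13 and 0.19, and neither r passed. With 8 blood cell markers 5 members related positively in females, led by PGRP-LC (rho = 0.61, r = 0.73), where 34.8% of genes did, and PGRP-LE negatively (rho = -0.53, r = -0.52), where 44.8% did. In males PGRP-SD related positively (0.45 and 0.45), where 7.50% did, and PGRP-SC2 negatively by rho (-0.41, where 7.19% did) with an r of -0.30 that did not pass. None of the 9 passed by rho against the egg shell genes in either sex. By r PGRP-SA passed negatively in females (-0.45, adjusted p = 0.0291, where 5.51% of genes did), and PGRP-SC2 and PGRP-SB1 positively in males (0.55 and 0.54, adjusted p = 0.00991 and 0.0220, where 5.08% did). Without the 2 flies farthest from the median these r values were -0.09, 0.32 and 0.20. In males the egg shell sum was only 4.45 to 24.8 CPM, and 3 of its 12 genes passed the filter. The male values thus rest on few counts.

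The members fell into loose sets by how they moved together. These correlations share libraries and depth, and are given as a description over 48 flies of a sex. In females PGRP-SA went with PGRP-LC (rho = 0.80), PGRP-LB (0.75) and PGRP-SD (0.74), and PGRP-LB with PGRP-LF (0.79) and PGRP-LC (0.75). PGRP-SC1a went with PGRP-SC2 (0.70), and its next highest value was 0.23, with PGRP-SB1. PGRP-SB1 had its highest values with PGRP-SD (0.58) and PGRP-SA (0.51). PGRP-LE lay between -0.35 and 0.15 with all others. In males the highest pairs were PGRP-SB1 with PGRP-SD (0.54), PGRP-SA with PGRP-SD (0.51) and PGRP-LB with PGRP-LC (0.42).

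**Figure D5:**
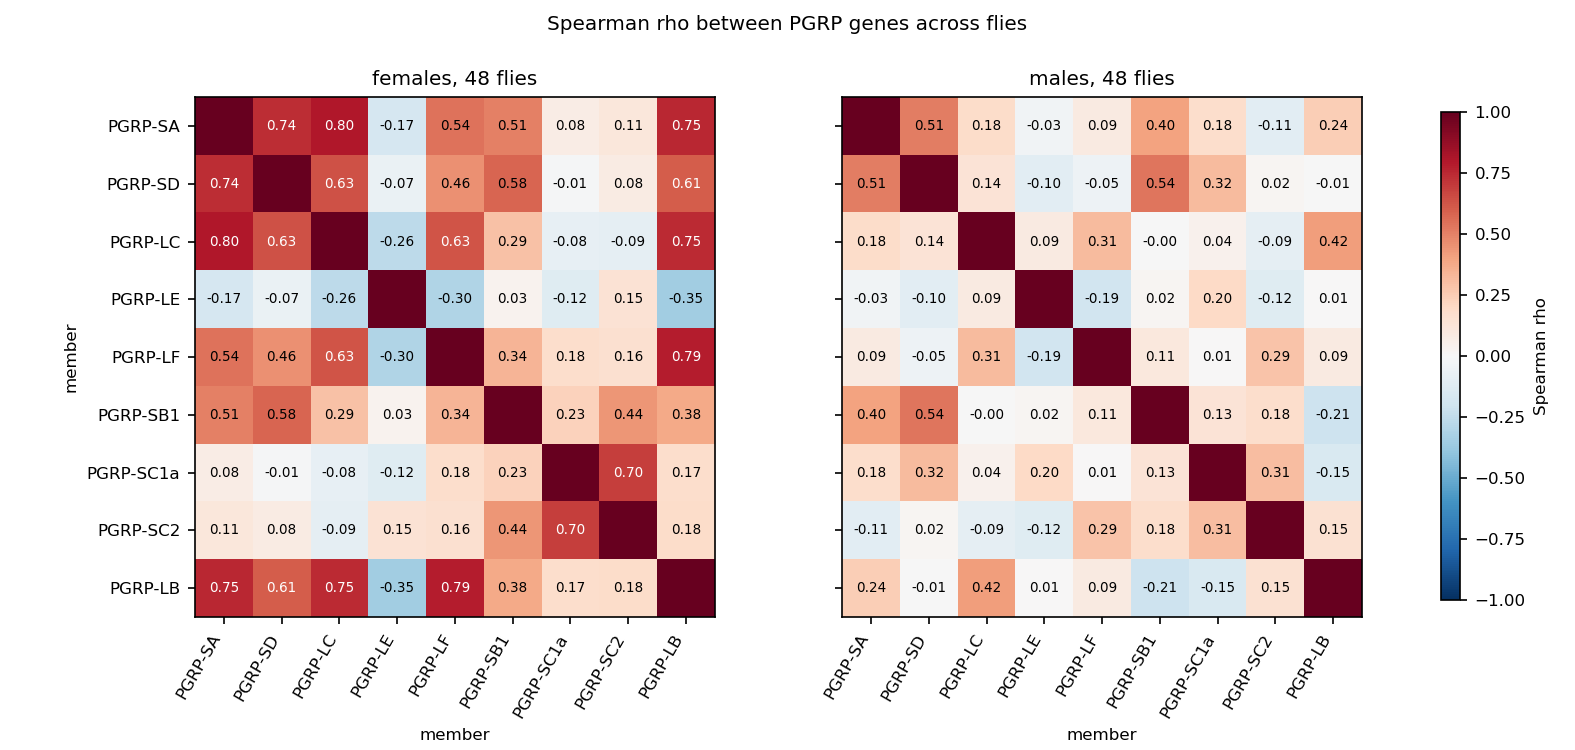
Spearman's rho between the 9 tested members over 48 females (left) and 48 males (right). In females PGRP-SA, PGRP-SD, PGRP-LC, PGRP-LF and PGRP-LB hold values of 0.46 to 0.80 with each other, PGRP-SC1a and PGRP-SC2 pair at 0.70, and PGRP-LE is near or below 0.

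The genes whose levels were most like each member over the flies also differed by member. In females they were Tep2, the Bomanin gene BomS3 and NimB2 for PGRP-SA (rho = 0.89, 0.88 and 0.87), and NimB3, Spn88Eb and Elal for PGRP-SD (0.83, 0.80 and 0.79). Tep2 encodes a thioester protein of the blood, and BomS3 a secreted Toll-pathway peptide. For PGRP-SC1a they were the digestive protease genes Jon99Fii, Jon99Fi and Jon25Biii (0.81, 0.79 and 0.72), and for PGRP-SC2 CG43055, Jon99Fii and CG4734 (0.75, 0.75 and 0.73). For PGRP-SB1 they were CG2233, CG2736 and Cyt-b5-r (0.81, 0.76 and 0.74), and CG2233 was also first in males (0.71). For PGRP-LC they were Xrp1, Mmp1 and kst (0.91, 0.91 and 0.90), for PGRP-LB Tsp29Fb, ringer and CG15098 (0.81, 0.80 and 0.80), for PGRP-LF PGRP-LB, Serinc and sqa (0.79, 0.71 and 0.71), and for PGRP-LE the chaperone gene Hsc70-3, schlank and Arl1 (0.72, 0.71 and 0.71). In males the first genes were Glt for PGRP-SA (0.68), Adk2 for PGRP-SD (0.79), Jon65Ai for PGRP-SC1a (0.69), the metallothionein gene MtnB for PGRP-SC2 (0.77), Myo31DF for PGRP-LB (0.73), pcs for PGRP-LC (0.72), CG34450 for PGRP-LE (0.57) and Krn for PGRP-LF (0.62). Jon99Fii was second for PGRP-SC1a in males as well (0.66).

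Genes that act with the PGRPs were read in the same fits. In females at 2 h against 0 h, where 4.37% of all genes fell, 0 of 14 Imd pathway genes and 1 of 17 Toll pathway genes were called (pll, the Pelle kinase, log2 -0.49). Of 12 antimicrobial peptide genes tested 4 fell, Dro (log2 -5.35), DptA (-5.23), Mtk (-4.84) and DptB (-3.56), in the comparison in which PGRP-SB1 and PGRP-SC2 fell. The median over the 12 was -3.56, over the 9 members -0.48 and over all genes -0.04. The falls of these peptide genes rested on 2 females at 0 h. DptA measured 0 to 3.02 CPM in the 12 females at 2 h, against 3827 and 933 CPM in those 2 and 0 to 3.58 CPM in the other 10 at 0 h. Without the female of 3827 CPM none of the 4 was called, and Def rose (log2 1.32, adjusted p = 0.0293). Without both females the median over the 12 was 0.31. The median fly held 806 CPM of the 14 peptides at 2 h, against 498 CPM at 0 h. At 8 h against 0 h, where 3.09% of all genes fell, 1 of 12 peptide genes fell (Drs, log2 -1.37) and 2 of 17 Toll pathway genes fell, GNBP3 (-1.10), which encodes a recognition protein for fungal glucan, and psh (-0.94), a protease, while 0 of 14 Imd pathway genes were called. At 8 h against 2 h in females, where 11.1% of all genes rose and 18.7% fell, 4 of 14 Imd pathway genes rose (Fadd, ben, casp and Uev1A, log2 0.23 to 0.65) and bsk fell (-0.47), and 3 of 17 Toll pathway genes rose (Tl, pll and cact, log2 0.36 to 0.58) and 3 fell (Dif, GNBP1 and psh, -0.80 to -0.75). GNBP1 acts with PGRP-SA in sensing. Of the peptides Def (-2.08) and Drs (-1.14) fell there. In males 0 genes of these 3 lists were called at 2 or 4 h against 0 h, or at 8 h against 2 h, and at 8 h against 0 h, where 4.38% of all genes fell, casp (-0.22) of 14 Imd pathway genes and modSP (-0.45) of 17 Toll pathway genes, the protease downstream of PGRP-SA, fell. Females were higher than males in 26.1% and lower in 39.8% of all genes. They were higher in 7 of 17 Toll pathway genes, led by the receptor gene Tl (log2 2.11), tub (1.32), pll (1.31) and cact (1.19), and in 5 of 14 Imd pathway genes, led by ben (1.07), Uev1A (0.75) and Tak1 (0.74), and lower in imd (-0.99), Diap2 (-0.71) and bsk (-0.51). Of 6 peptide genes tested Drs (4.27) and Def (3.62) were higher and CecA1 (-4.61) lower, all at an adjusted p under 0.05 in edgeR's quasi-likelihood test. Over 48 flies of each sex, the 12 egg shell genes summed to a median of 2842 CPM in females and 8.14 CPM in males. The part of ovary RNA in the differences between the sexes was not tested.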

How the data were processed

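The authors deposited 1 table of whole-number counts of reads per gene for 96 single-fly libraries; per the labels' protocols these were stranded poly(A) libraries with spike-ins, pooled with RNA of other species and sequenced as single reads. The submitters' processing notes name STAR 2.4.2a, TopHat2 2.1.0 and HTSeq 0.6.1p1 without their roles, and no build of the genome is given in the sources used here. The 96 spike-in rows and 5 summary rows, the summary rows 8.73 to 23.3% of a library, were left out. Gene symbols came from the FlyBase annotation of BDGP6.54, and 17155 of 17370 identifiers matched. Replicates are separate flies, and no 2 files were identical.

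Counts were filtered (filterByExpr), TMM-normalised and tested with edgeR 4.0.16 (limma 3.58.1, R 4.3.3), 1 fit per sex, 1 for the sexes and 1 for the interaction, with DESeq2 1.42.0 as an alternative. Of 10 members 9 passed the filter, which kept 10060 genes in females and 12644 in males. The SE is the log2 difference over the root of F, and 95% intervals are normal. CPM uses TMM factors over all libraries. Relations across flies used log2(CPM + 0.5) and SciPy 1.17.1. A count of 3 equals 0.326 to 3.13 unnormalised CPM, for counting error only. In the male at 4 h on 0.4% DMSO, replicate 1, a count of 1 equals 2.06 normalised CPM. Scripts were tested on simulated data. Genes named beside the members are called genes of a list, by rule the 4 with the largest change, or the 3 most alike genes by rho.

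The members, lists and tests were chosen with earlier results of these data known. Over all foods and times, same-numbered flies did not deviate together on average (mean correlation -0.0229 in females and -0.00774 in males). These means are over 360 same-number pairs in each sex, and pairs within a plate were not looked at apart. Pairing by number within a plate was thus not tested. No sequences are shown, since none was used here.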

Additional observations from a re-analysis of the deposited data

Results flagged for a closer look

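Flies standing apart by Dixon's criterion were found in 40 of 100 checks. These were made within males of 1 time on DMSO food, fed females or males of 1 level, and the 6 flies of a sex at 0 and 2 h without DMSO. For normally distributed values chance gives about 1 in 20. The checks used CPM without logs, which are skewed here, so that rate cannot be set against the 40. Several checks also share flies. The male at 4 h on 0.4% DMSO, replicate 1, stood apart with PGRP-SB1 at 1621, PGRP-SC2 at 980, PGRP-SA at 287, PGRP-SD at 260, PGRP-LB at 221, PGRP-LC at 76.3, PGRP-LF at 28.9 and PGRP-LE at 10.3 CPM. The PGRP-LE value was on the low side and rests on few counts. The female at 0 h labelled without DMSO, replicate 1, did so with PGRP-SB1 at 681, PGRP-SC2 at 502, PGRP-SD at 102, PGRP-LC at 61.8, PGRP-SA at 59.9, PGRP-LB at 59.9 and PGRP-LF at 23.5 CPM.

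Other males stood apart in fewer genes. At 0 h the male labelled 0.2% DMSO, replicate 3, held PGRP-SD at 23.8, PGRP-SB1 at 20.4 and PGRP-SA at 16.5 CPM. At 2 h PGRP-LB was 24.2 CPM in the male on 0.1% DMSO, replicate 1, PGRP-SC2 56.1 CPM in the male on 0.2%, replicate 2, and PGRP-SB1 10.0 CPM in the male without DMSO, replicate 2. At 8 h on 0.1% DMSO PGRP-LE was 32.2 CPM in replicate 2 and PGRP-LF 10.2 CPM in replicate 3.

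Among females at 4 h, replicate 2 without DMSO held PGRP-LB at 34.3 and PGRP-SC1a at 9.44 CPM, replicate 1 on 0.1% held PGRP-SA at 18.4 CPM, replicate 3 on 0.2% held PGRP-LF at 15.0 CPM and replicate 2 on 0.4% held PGRP-SA at 12.5 CPM. At 8 h, replicate 3 on 0.1% held PGRP-SC2 at 239 and PGRP-SB1 at 101 CPM, replicate 3 on 0.2% held PGRP-SB1 at 70.2 CPM and replicate 1 on 0.4% held PGRP-SC1a at 14.9 CPM.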

How the results depend on the processing

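With the replicate block, members called fell to 1 in females at 2 h against 0 h (PGRP-SC2 -1.39, adjusted p = 0.0525), 0 in females against males (PGRP-SB1 2.42, adjusted p = 0.0856) and 0 in males at 4 h against 0 h (PGRP-SB1 2.57, adjusted p = 0.0692), and PGRP-SD lost its call among level pairs (adjusted p = 0.0750). With the block, 1188 of 10060 genes were called in females at 2 h, 7968 of 12069 between the sexes and 97 of 12644 in males at 4 h. DESeq2 called 1 member in females at 8 h against 0 h, 4 at 8 h against 2 h, 1 in fed females on 0.2% DMSO, 5 over the level pairs, 0 in females against males and 0 in males at 4 h. It called 704, 3535 and 22 of 10060 genes in the first 3 of these, 8207 of 12069 between the sexes and 253 of 12644 in males at 4 h. Without a filter 1 member was called in females at 8 h against 2 h, where 1944 of 15614 genes were. In females at 2 h against 0 h the 3 foods with DMSO gave 0 and the food without gave 0, where 934 and 3 of 10060 genes were called. With the run as a factor, males at 4 h gave 0 and the level pairs 0. In males the relation with 14 peptides, 2 members, became 1 with Bomanins, 0 with diptericins and attacins, 0 for deviations from group means, 0 within the run of 8, 1 without 2 flies and 1 without the male at 4 h on 0.4% DMSO, replicate 1 (chosen after the data were seen). The causes were not tested.

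Leaving out 1 fly gave 0 to 2 members in females at 2 h against 0 h, 0 to 1 at 8 h against 0 h, 1 to 4 at 8 h against 2 h, 0 to 2 in females against males, 0 to 1 in males at 4 h and 0 to 5 over level pairs. The shares of all genes called in these refits are not given here. Without the male at 4 h on 0.4% DMSO, replicate 1, PGRP-SB1 and PGRP-SD reversed to -0.52 and -0.0047 in its level pair, where leaving out 1 fly gave -0.52 to 6.98 for PGRP-SB1 and -0.0047 to 4.59 for PGRP-SD. Over all genes, edgeR and DESeq2 called 0 and 255 in females at 4 h, 361 and 704 at 8 h, and 177 and 315 in males at 2 h and 121 and 253 at 4 h, against 0 h. With the run as a factor males gave 451, 247 and 348 at 2, 4 and 8 h against 0 h, the last beside 1433, and 273 at 8 h against 2 h beside 536. Depth limits PGRP-SC1a and PGRP-SC1b.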
